A study of Mus musculus with 2 samples.

Results

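NELF-B regions on mouse chromosome 7 were examined in a list made by chromatin immunoprecipitation and sequencing (ChIP-seq). All entries of the deposited interval track on chromosome 7 were taken, 655 of 9095 regions (7.20%), and each was joined by order to its entry in the summit track. The comparison set was the 8230 regions of chromosomes 1 to 6 and 8 to 19, the 18 other autosomes. The series asked where NELF-B lies on the chromosomes of mouse embryonic fibroblasts, connective tissue cells grown from an embryo. Both libraries came from fibroblasts of a Nelf-b f/- embryo (1 floxed and 1 null allele) on a background mixed from 129/SvJ, C57BL/6 and FVB, growing asynchronously in medium with 10% serum. One library was precipitated with a polyclonal antibody against NELF-B, and the other was input DNA, which contributed no values here. There are no replicates, no wild-type cells and no cells without NELF-B, so the spread between cultures is unknown. The list holds no expression values, so the labelled cell type could not be checked against markers. Sequencing depth is unknown.

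NELF-B is 1 of the proteins that make up the negative elongation factor. This complex binds RNA polymerase II just downstream of transcription start sites and holds it paused. The pause is released when the kinase P-TEFb acts on the polymerase and on the factor's companions. ChIP-seq for NELF subunits therefore usually marks the beginnings of genes that are loaded with polymerase. Such genes are not spread evenly along mammalian chromosomes, which alternate between gene-rich stretches and long gene-poor ones or arrays of genes used in a single tissue.

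Mouse chromosome 7 carries many of both kinds. In the GRCm38.p6 gene table it holds 2030 of 20661 autosomal protein-coding genes (9.83%). It has 417 of 1458 olfactory and vomeronasal receptor genes (28.6%), the sensors of odours and pheromones. By family these are 239 Olfr genes, 126 Vmn1r genes and 52 Vmn2r genes, and the longest unbroken series of such genes in chromosomal order has 42 members. Chromosome 7 also has 26 of 27 Klk genes (kallikrein proteases), all 26 of them consecutive, and all 28 Ceacam and Psg genes. It has 93 of 391 Zfp genes, which encode zinc finger proteins. Imprinted genes such as H19, Igf2, Kcnq1ot1, Snrpn and Peg3 lie on it too. The list of 24 imprinted genes looked up holds none of another chromosome. It therefore gives no share of imprinted genes in general. The sources used here name no genome build for the NELF-B list. It reaches 7.19 Mb past the last gene of chromosome 7 in that table, and 61 regions start beyond it. No region was therefore assigned to a gene, no sequence is shown, and whether any of these families lies in an island or an empty stretch was not tested.

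The chromosome was NELF-B rich for its length. Its 655 regions up to the end of the last one at 152.5 Mb gave 4.29 regions per Mb (exact Poisson 95% interval 3.97 to 4.64), against 3.56 (3.48 to 3.64) on the other autosomes. The ratio was 1.21 (exact 95% interval 1.11 to 1.31), and chromosome 7 ranked 4 of 19. Against the gene number the order turned. There were 32.3 regions per 100 protein-coding genes (29.8 to 34.8) on chromosome 7 and 44.2 (43.2 to 45.1) on the others. No single autosome had a lower value than chromosome 7. With the olfactory and vomeronasal receptor genes left out the gap narrowed, to 40.6 (37.6 to 43.8) against 46.8 (45.8 to 47.8). Chromosomes 1 and 14 were then lower than chromosome 7, at 36.6 (33.3 to 40.3) and 37.6 (33.5 to 42.0). These intervals, like all others below, cover counting error over regions or windows of 1 library and treat them as independent, which neighbouring ones are not. Counts in windows of 1 Mb had a variance of 8.23 times their mean on chromosome 7, and of 3.24 to 8.78 times on the others. The intervals of the densities and of their ratio are therefore too narrow. No test over samples was possible with 1 library.

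To describe islands and deserts, regions were counted by summit in fixed windows of 1 Mb from position 1. A window with 10 or more regions was called dense, one with 4 to 9 middle, one with 1 to 3 sparse, and one with 0 empty. Of the 153 windows of chromosome 7, 54 were empty, or 35.3% (exact Clopper-Pearson 95% interval 27.7 to 43.4), where 31.0% of the windows of the other autosomes were empty (29.1 to 32.9). The share of empty windows was thus not separated from that of the others at this number of windows. Dense windows numbered 18, or 11.8% (7.12 to 18.0), against 9.43% on the other autosomes. These 18 windows held 312 of the 655 regions, or 47.6% (43.8 to 51.5), against 39.3% (38.2 to 40.3) elsewhere. Chromosome 7 ranked 5 of 19 for this share. The excess depended on the bound. With 15 or more regions the ratio of the 2 shares rose from 1.21 to 1.70 (1.47 to 1.95), and with a bound of 8 it was 1.06 (0.948 to 1.18). These intervals count regions, which lie together in few windows. Counted as windows, those with 15 or more were 11 of 153, or 7.19% (3.64 to 12.5), against 3.70% (2.97 to 4.55), and these intervals overlapped. At the bound used, 2 windows held exactly 10 regions and 4 held exactly 9.

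The sparse class was thin on chromosome 7. Windows with 1 to 3 regions were 32 of 153, or 20.9% (14.8 to 28.2), against 785 of 2322, or 33.8% (31.9 to 35.8), on the other autosomes. No other autosome had a lower share, the nearest being chromosome 16 at 22.2%. These windows were compared after the data were seen. Only 57 regions, 8.70% of those on the chromosome, lay in such windows, against 18.2% elsewhere. Chromosomes 11 and 17 were close to chromosome 7, at 9.02% and 9.62%. The median of the other autosomes taken singly was 17.3%. An occupied window of chromosome 7 held a median of 5 regions (exact 95% interval 4 to 6), against 4 (3 to 4) elsewhere. The ratio of the shares of sparse windows was 0.619 (0.420 to 0.881), but it was 0.759 (0.535 to 1.05) with windows shifted by 500 kb and 0.899 (0.600 to 1.30) with windows of 2 Mb, so its distance from 1 depends on where and how finely the chromosome is divided.

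**Figure D1:**
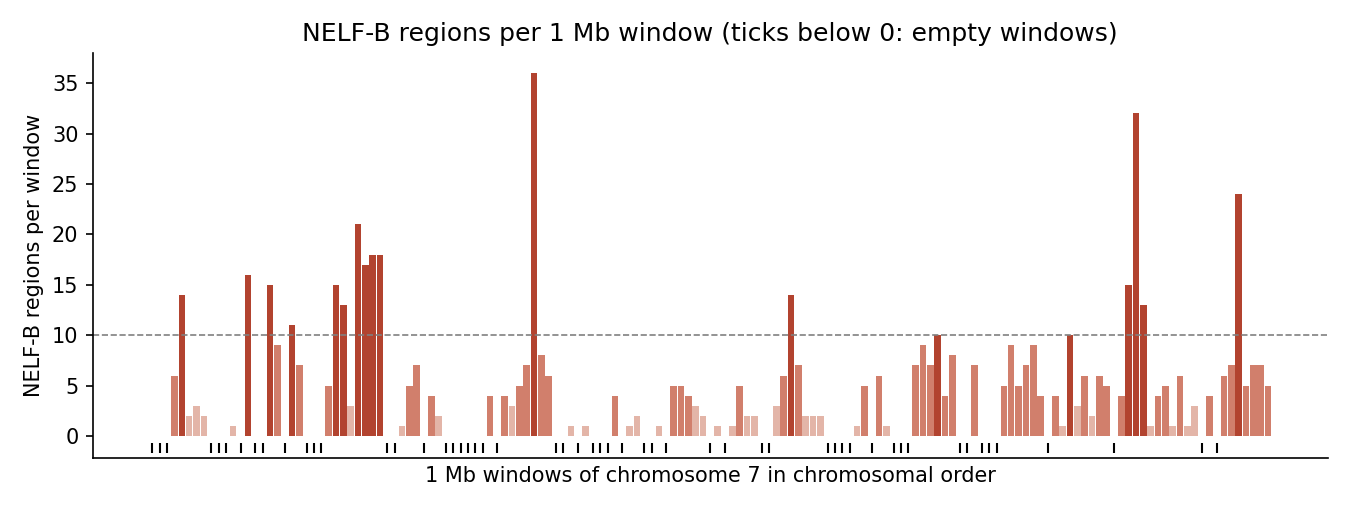
NELF-B regions in each of the 153 windows of 1 Mb of chromosome 7, in chromosomal order; bar height is the number of regions, the dashed line marks the bound of 10 for dense windows, darker bars hold more regions and ticks below 0 mark the 54 empty windows. The highest bars hold 36, 32 and 24 regions.

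**Figure D2:**
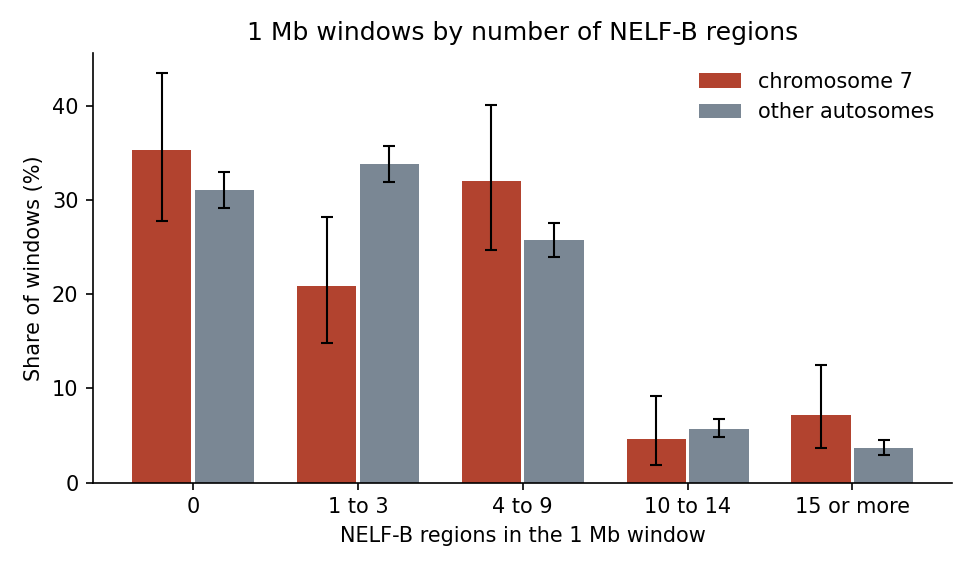
Share of 1 Mb windows (percent) with 0, 1 to 3, 4 to 9, 10 to 14 and 15 or more NELF-B regions, for 153 windows of chromosome 7 and 2322 windows of the other autosomes, with exact 95% intervals as error bars. The widest gap is at 1 to 3 regions, 20.9% against 33.8%.

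The 18 dense windows fell into 12 islands when adjacent ones were joined. The longest ran over 4 windows, chr7:28000001-32000000, with 74 regions, a median summit height of 43.5 and a tallest region of 144. Heights are whole numbers in the authors' own unit, which the sources used here do not define. The window before this island held 3 regions and the window after it held 0. The next longest, chr7:133000001-136000000, held 60 regions in 3 windows with a median height of 47.5. It dropped to 1 region in the window after it. One more of 2 windows, chr7:25000001-27000000, held 28 regions, and the other 9 islands were single windows.

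Some islands stood directly beside empty sequence. The window chr7:13000001-14000000 held 16 regions between windows that held 0 on either side. The 15 regions of chr7:16000001-17000000 followed an empty window and spanned only 484.9 kb, and the 11 regions of chr7:19000001-20000000 also followed an empty one. In all, 4 of the 18 dense windows touched an empty window (22.2%, 6.41 to 47.6), against 11.9% (7.90 to 16.9) elsewhere. Another dense window was adjacent for 9 of the 18 (50%, 26.0 to 74.0), against 61.2% (54.4 to 67.7). Neither contact differed beyond these intervals.

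The 10 windows with the most regions held 212 regions, 32.4% of those on the chromosome. The first, chr7:52000001-53000000, had 36. Its regions covered 48.4 kb and were spread over 970.6 kb, so they reached across most of the window and did not form a single block. Its gaps ran from 1.92 to 116.3 kb with a median of 21.4 kb, its heights from 17 to 207 with a median of 47, and its median width was 1235 bp. The windows on either side held 7 and 8 regions.

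The second, chr7:134000001-135000000, had 32 regions over 980.6 kb, with heights from 21 to 102 and a median of 47.5. In the third, chr7:148000001-149000000, 24 regions lay within 741.2 kb, with heights of 21 to 96 and a median of 40. The fourth, chr7:28000001-29000000, had 21 regions with heights of 21 to 144 and a median of 50. The windows chr7:30000001-31000000 and chr7:31000001-32000000 had 18 each, chr7:29000001-30000000 had 17, chr7:13000001-14000000 had 16, and chr7:16000001-17000000 and chr7:25000001-26000000 had 15 each. Median heights of these 10 windows ran from 38 to 50 and median widths from 1067 to 1297 bp, around the chromosome's own medians of 43 and 1136 bp. Of their 212 regions, 14 were among the tallest 10% of the list, which are the 10.0% of all regions with a height of 93 or more.

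Segments of 10 Mb showed the contrast at a coarser scale. The segment chr7:20000001-30000000 had 81 regions and chr7:130000001-140000000 had 80, together with 7 dense and 4 empty windows. At the other extreme, chr7:60000001-70000000 had 8 regions and 6 empty windows, chr7:40000001-50000000 had 11 regions and 7 empty windows, and chr7:90000001-100000000 had 16 regions and 5 empty windows. Median heights in these 3 poor segments were 49, 37 and 48, and in the 2 rich ones 44 and 47.5. The poor segments thus had medians on both sides of those of the rich ones. Regions among the tallest 10% of the list were 4 of 81 and 5 of 80 in the rich segments. In the poor ones they were 1 of 8, 0 of 11 and 0 of 16. On the whole chromosome 7.63% of regions were in that class, and the poor segments have too few regions for a comparison of shares. The first region began at 3.57 Mb, so the first 3 windows were empty. Unsequenced or unmappable sequence was not removed here, and its part in the empty windows was not tested.

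Empty stretches were also measured without windows, as gaps of 1 Mb or more between consecutive regions. Chromosome 7 had 30 such stretches, which added up to 78.7 Mb or 52.9% of the span from its first to its last region. On the other autosomes 495 stretches took 51.2% of the span. Per 100 Mb of span there were 20.1 stretches on chromosome 7 (exact Poisson 95% interval 13.6 to 28.8) and 22.1 (20.2 to 24.1) elsewhere. The median stretch was 2.12 Mb on chromosome 7 and 1.75 Mb elsewhere. The longest on chromosome 7 was 7.65 Mb, and 6 of the 18 other autosomes had a longer one, up to 12.5 Mb on chromosome 14. The deserts of chromosome 7 thus took a share of sequence close to the others' 51.2%, while the regions between them were more crowded than on the others pooled. The median gap between consecutive regions was 49.6 kb (exact 95% interval 44.9 to 57.8), against 74.8 kb (71.8 to 77.6). Chromosomes 19 and 17 had shorter median gaps, 42.9 and 47.6 kb, and chromosome 11 had 53.0 kb. The median of the other autosomes taken singly was 79.3 kb. This gap is not a measure separate from the density given above.

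The longest stretch was chr7:39056911-46704221, bounded by regions of height 88 and 24. The second was chr7:91041306-96486984 with 5.45 Mb, between heights of 51 and 46. The third, chr7:20506904-24866236, was 4.36 Mb long between heights of 71 and 63. It lay between the islands chr7:19000001-20000000 and chr7:25000001-27000000. Next came chr7:100024141-104099550 with 4.08 Mb, chr7:59118326-63048852 with 3.93 Mb and chr7:7252875-11080281 with 3.83 Mb. The last 4 of the longest 10 were chr7:112960202-116077452 with 3.12 Mb, chr7:66484513-69564783 with 3.08 Mb, chr7:31993751-34953107 with 2.96 Mb and chr7:82993770-85802920 with 2.81 Mb. The ninth of these began at once after the longest island, whose last region had a height of 25 and a width of 772 bp, and ended at a region of height 118.

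Regions at the rim of a stretch were not separated from the rest by height or width. The 55 regions that bordered a stretch of 1 Mb or more had a median height of 41 (exact 95% interval 33 to 53) and a median width of 1102 bp (1008 to 1234). The 600 others had medians of 43 (41 to 45) and 1141 bp (1100 to 1169). The intervals overlapped for both measures. The ratio of median heights was 0.953, and it changed side to 1.19 (0.822 to 1.61) when only stretches of 2 Mb or more were counted.

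A few regions stood alone inside the deserts. On chromosome 7, 5 of 655 regions (0.763%, 0.248 to 1.77) had a stretch of 1 Mb or more on both sides, against 0.680% on the other autosomes. They were chr7:11080282-11081064 with height 38, chr7:57033340-57034248 with 21, chr7:59117182-59118325 with 48, chr7:69564784-69565499 with 20 and chr7:77506277-77507029 with 54. None was among the tallest 10% of the list. Their widths ran from 716 to 1144 bp with a median of 783 bp, and 4 of the 5 were narrower than the chromosome's median region. The 56 such regions elsewhere had a median of 1163 bp (995 to 1220) and a median height of 42.5. With 5 regions no interval of their own median can be given at 95%.

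Heights on chromosome 7 were ordinary at the middle of the distribution, and fewer reached its top than on the other autosomes pooled. The median was 43 (exact 95% interval 41 to 45), against 45 (44 to 45) on the other autosomes, and the quartiles were 31 and 62 against 32 and 65. Of the whole list 10.0% of regions reached 93, the height that marks the tallest 10%. On chromosome 7 it was 50 of 655, or 7.63% (5.72 to 9.94), and on the other autosomes 10.4% (9.71 to 11.04). Chromosome 7 ranked 13 of 19 for this share, so it was not extreme. The median share of the other autosomes taken singly was 9.09%, below their pooled share. Further up the gap widened. Heights over 150 were reached by 6 regions, or 0.916% (0.337 to 1.98), against 2.79% (2.45 to 3.17), and only chromosome 18 had a lower share. Heights over 200 were reached by 2 regions, or 0.305% (0.0370 to 1.10), against 1.39% (1.14 to 1.66).

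The ratio of the shares among the tallest 10% was 0.737 (0.542 to 0.980). It was 0.487 (0.281 to 0.788) for the tallest 5%, 0.855 (0.703 to 1.03) for the tallest 20%, and 0.858 (0.629 to 1.15) for the tallest 10% when chromosomes 8, 11 and 17 were left out of the comparison. The last 2 intervals include 1. Chromosome 6, where 16.7% of regions were among the tallest 10%, stayed in the comparison without chromosomes 8, 11 and 17.

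**Figure D3:**
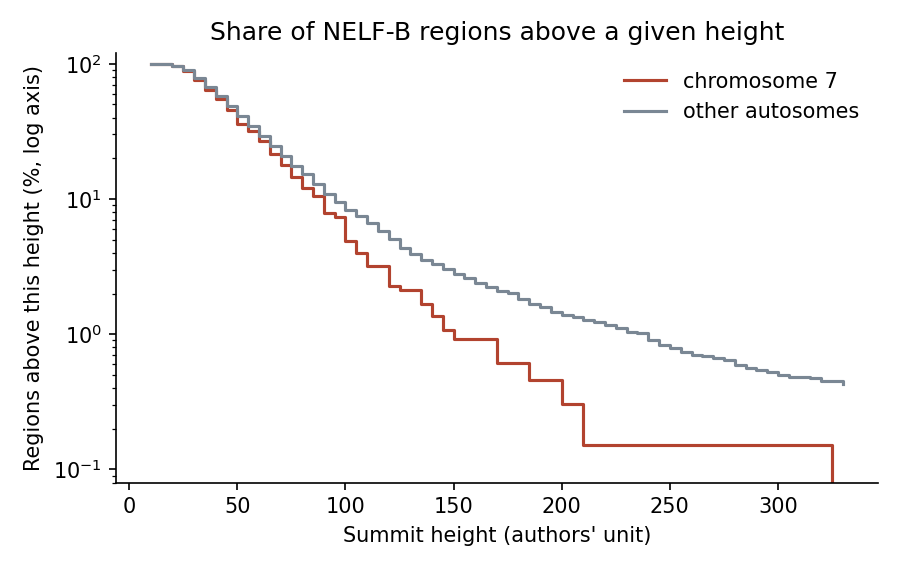
Share of NELF-B regions (percent, log axis) above a given summit height (authors' unit), for 655 regions of chromosome 7 and 8230 regions of the other autosomes. The chromosome 7 line lies below the other at the upper end, with 4.89% against 8.35% of regions above 100 and 0.916% against 2.79% above 150.

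The tallest region of the chromosome, chr7:3655008-3656359, reached 321, which is 7.47 times the chromosome's median and 1.55 times the next. It lay near the start of the list, 8.68 kb from its neighbour, in a window of 6 regions. The second, chr7:52714422-52716842, reached 207 and was 2421 bp wide. It lay in the densest window, where the next region, 4.93 kb further on, had a height of 22, and the one 7.62 kb beyond that had 39. The next region by height and the last of the 10 were neighbours 12.1 kb apart, chr7:125272551-125273682 with 198 and chr7:125259169-125260415 with 138. They followed a gap of 644.6 kb.

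The fourth, chr7:74789575-74790945, reached 181 in a sparse window of 3 regions, 271.0 kb from the region before it and 620.4 kb from the one after. It was the tallest region of any sparse window on the chromosome. The others were chr7:135110073-135111674 with 168, chr7:16636980-16638898 with 166, chr7:54286081-54287521 with 146, chr7:28271266-28273522 with 144 and chr7:118225706-118227304 with 142. Of these 10, 6 lay in dense windows, 3 in middle ones and 1 in a sparse one. All but 1 were wider than the chromosome's median region.

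The 50 regions among the tallest 10% were scattered over 33 windows. The window with the most, chr7:54000001-55000000, was no island: 4 of its 6 regions were in that class, the last of them at the rim of a stretch of 2.75 Mb. In chr7:128000001-129000000 both of the 2 regions were in it. The densest window had 3 of 36, the second 2 of 32 and the third 1 of 24. Of the 18 dense windows 5 had none. Windows named here for their tall regions were chosen after their values were seen.

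Dense windows of chromosome 7 held a smaller share of tall regions than dense windows of the other autosomes pooled. Of the 312 regions in them 22 were among the tallest 10% of the list, or 7.05% (exact 95% interval 4.47 to 10.5), against 434 of 3232, or 13.4% (12.3 to 14.7), in dense windows of the other autosomes. In middle windows the shares were 8.39% (5.45 to 12.2) and 8.74% (7.82 to 9.72), and in sparse windows 7.02% (1.945 to 17.004) and 7.55% (6.27 to 9.01). So the difference was seen in dense windows, while the shares in the other classes lay within each other's intervals. The ratio for dense windows was 0.525 (0.326 to 0.805), stayed between 0.340 and 0.698 over the 9 alternatives tried, and was 0.631 (0.388 to 0.977) without chromosomes 8, 11 and 17. Among the 19 autosomes chromosome 7 ranked 16 for this share, so 3 had a lower one, down to 1.72% on chromosome 12. The median of the other autosomes taken singly was 11.2%, below their pooled share, and the highest was 26.1% on chromosome 13. The bounds of these classes were set with results of these data known, and this comparison was added after the data were seen.

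Median heights followed the same pattern with a smaller gap. On chromosome 7 the median was 44 (41 to 46) in dense windows, 41.5 (38 to 47) in middle ones and 41 (27 to 46) in sparse ones, and these intervals overlapped. On the other autosomes it was 48 (47 to 49), 43 (43 to 44) and 41 (40 to 43), with dense windows above both other classes. The intervals for dense windows, 41 to 46 and 47 to 49, did not meet. Against single autosomes the value was not extreme: chromosome 7 ranked 13 of 19 for this median, with 2 others equal to it. The middle value of the other autosomes was 46. The difference between chromosome 7 and the rest in how height goes with class was not tested, since regions of 1 library are not replicates.

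Widths went the same way on chromosome 7 and elsewhere. The median width was 1136 bp (1099 to 1166) on chromosome 7 and 1139 bp (1132 to 1146) on the other autosomes. On chromosome 7 it was 1189 bp (1132 to 1242) in dense windows, 1112 bp (1078 to 1154) in middle ones and 1067 bp (919 to 1144) in sparse ones. The corresponding values elsewhere were 1173 bp (1156 to 1182), 1121 bp (1108 to 1134) and 1116 bp (1100 to 1133). Elsewhere the dense windows were separated from the others, and on chromosome 7 the intervals of dense and sparse windows met at 1132 to 1144 bp. The widest 10% of the list, 10.0% of regions at 1691 bp or more, took 58 regions of chromosome 7, or 8.85% (6.79 to 11.3), against 10.2% (9.57 to 10.9).

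**Figure D4:**
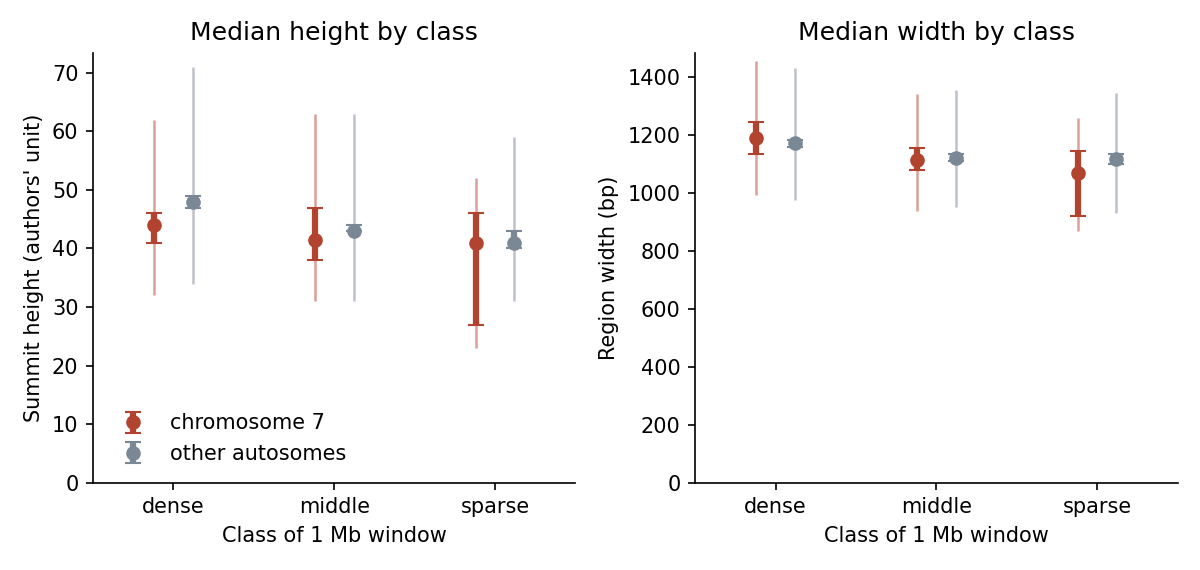
Median summit height (left, authors' unit) and median width (right, bp) of NELF-B regions in dense, middle and sparse 1 Mb windows of chromosome 7 and of the other autosomes; thick bars are exact 95% intervals of the median and thin lines the quartiles. Median height in dense windows is 44 on chromosome 7 and 48 elsewhere, while median widths are close in each class.

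The widest region, chr7:5011362-5014342, spanned 2981 bp with a height of 58, and stood at the rim of a stretch of 1.22 Mb. Next were chr7:16984231-16987203 with 2973 bp and height 79, chr7:117203851-117206618 with 2768 bp and height 101, chr7:52103696-52106290 with 2595 bp and height 42, and chr7:80761530-80764107 with 2578 bp and height 63. One of these 5 was among the tallest 10% of the list, and none was among the 10 tallest of the chromosome. Height rose with width to the same degree in both sets, with a Spearman rho of 0.42 over the 655 regions and 0.42 over the 8230 others. These describe regions of 1 library, so no p is given. Summits lay at a median of 48.7% of the width, against 48.5% elsewhere, and 648 of the 655 summits fell on a multiple of 16 bp, so no finer position can be read.

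Sparse windows of chromosome 7 held many faint regions. A height of 25 or less marks the lowest 10% of the list, which with ties takes 10.8% of regions. It was found in 16 of the 57 regions of sparse windows, or 28.1% (exact 95% interval 16.97 to 41.5), against 178 of 1496, or 11.9% (10.3 to 13.6), in sparse windows elsewhere. This was the highest share of the 19 autosomes, followed by 17.9% on chromosome 1, a value inside the interval of chromosome 7. The comparison was added after the data were seen. In middle windows the shares were 11.5% (8.08 to 15.8) and 11.4% (10.4 to 12.5), and in dense windows 9.62% (6.58 to 13.4) and 9.10% (8.13 to 10.1). The lower quartile of height in sparse windows was 23 on chromosome 7 and 31 elsewhere, while the medians were 41 in both.

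The 16 faint regions had heights of 12 to 24 and lay in 13 different windows, with at most 2 in one. The faintest, chr7:49897723-49898358, had a height of 12 and a width of 636 bp, and chr7:49760889-49761457, with height 18 and width 569 bp, lay in the same window. Their median width was 859 bp, against 919 bp (850 to 997) for all 79 regions of the chromosome at that height or lower. Only 4 of the 16 bordered a stretch of 1 Mb or more. The ratio of the shares was 2.36 (1.32 to 3.94). It was 1.95 (1.11 to 3.22) with windows shifted by 500 kb, 1.44 (0.849 to 2.31) with windows of 2 Mb, 2.08 (0.816 to 4.47) with windows of 500 kb, and 2.18 (0.967 to 4.31) with sparse windows of up to 2 regions. The last 3 intervals include 1.

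**Figure D5:**
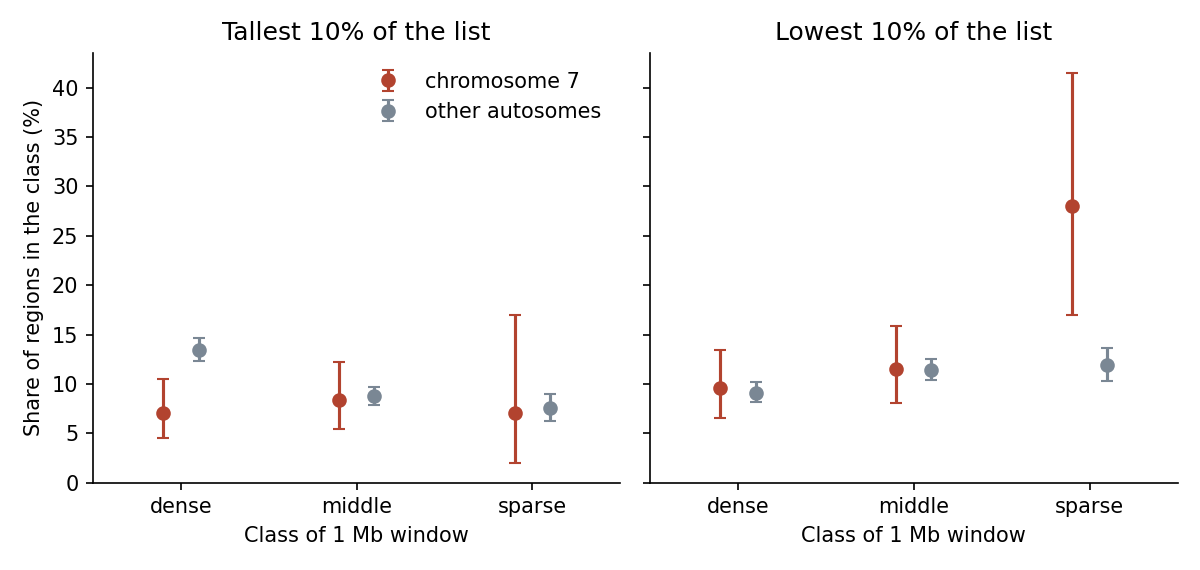
Share of regions (percent) that belong to the tallest 10% (left) and the lowest 10% (right) of the whole list in dense, middle and sparse 1 Mb windows of chromosome 7 and of the other autosomes, with exact 95% intervals. Chromosome 7 lies below the others pooled among tall regions of dense windows, 7.05% against 13.4%. It lies above them among faint regions of sparse windows, 28.1% against 11.9%.

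Close neighbours were not separated in number from those elsewhere at 10 kb, and were more common at 50 kb. Another region lay within 10 kb of 126 regions of chromosome 7, or 19.2% (16.3 to 22.5), where 17.2% of regions on the other autosomes had one. Within 50 kb the shares were 70.2% (66.6 to 73.7) and 59.1% (58.1 to 60.2), with no comparison to single autosomes made. In dense windows alone the shares within 10 kb were 27.2% (22.4 to 32.5) and 28.3% (26.7 to 29.9), and the intervals overlapped. The nearest neighbour in a dense window was at a median of 18.0 kb (14.8 to 20.8) on chromosome 7 and 19.4 kb (18.3 to 20.3) elsewhere. In sparse windows it was 84.1 kb (62.9 to 149.7) against 146.5 kb (138.7 to 158.5).

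Consecutive regions less than 10 kb apart formed 49 pairs and 9 larger groups with 28 regions in all. The largest, chr7:134375870-134404880, had 4 regions with heights of 36, 43, 26 and 39 in chromosomal order. The remaining 8 had 3 regions each. Heights were 70, 37 and 65 in chr7:13608324-13624321, and 107, 31 and 44 in chr7:31336641-31349154. The group chr7:52714422-52731093 joined the second tallest region to the heights of 22 and 39 given above. Even in so short a stretch a tall region could stand beside much lower ones.

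Even groups were found as well. In chr7:133618178-133631160 the heights were 48, 41 and 47, and in chr7:112884510-112901154 they were 49, 34 and 46. The rest were chr7:133935121-133953095 with 78, 87 and 23, chr7:135038511-135056460 with 39, 48 and 65, and chr7:148401096-148415234 with 41, 28 and 33. All but 1 of the 9 groups lay in dense windows, the exception being chr7:112884510-112901154 in a window of 7. The 2 shortest gaps on the chromosome were 1879 bp, between heights of 39 and 32, and 1922 bp, between heights of 27 and 26. The heights of 2 such neighbours had a Spearman rho of 0.06 over 68 pairs on chromosome 7 and of 0.23 over 763 pairs elsewhere. Pairs overlap in their members and come from 1 library, so these are descriptions.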

How the data were processed

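The data are 1 ChIP-seq library for NELF-B and 1 input library from mouse embryonic fibroblasts. Per the labels' protocols, cells were fixed in 1% formaldehyde for 15 min, chromatin was sheared to 300 to 500 bp, and fragments of 175 to 225 bp were amplified for 18 cycles. Peak calling with MACS is named in the submitters' processing notes, with no version given. The aligner, the build, the threshold and whether the input was used are not stated in those sources. Per the file headers the deposited file has 3 tracks, here 9095 entries each. The number beside each summit, a score written by the authors and called height, has no stated unit. Intervals were identical in tracks 2 and 3 in all 9095 entries.

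Region starts, counted from 0 in the file, had 1 added. Summits are printed as deposited, and a region belongs to the window of its summit. Chromosome length is the end of the last region. Counts have exact Poisson intervals, shares exact Clopper-Pearson intervals, medians exact order-statistic intervals, and ratios of counts or shares exact conditional intervals for 2 Poisson rates, all at 95%. Ratios of medians have bounds made from the 2 medians' own intervals, which are wide. Window counts, gaps and intervals were checked on simulated layouts. Software was pandas 2.3.3, SciPy 1.17.1, NumPy 2.4.6 and matplotlib 3.10.9 under Python 3.11.15. Named were the 10 tallest and 5 widest regions, the 10 densest windows, the 10 longest empty stretches, regions with a stretch on both sides, and groups of 3 or more regions less than 10 kb apart. The members, bounds and lists were chosen with earlier results of these data known. The gene table of assembly GRCm38.p6 served only for names, totals per chromosome and gene order.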

Additional observations from a re-analysis of the deposited data

How the results depend on the processing

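Of 61 alternatives over 14 results, each a ratio, 53 left the value inside the interval of the reported one and 8 moved it. Of the 61, 36 belonged to the planned list, drawn up with earlier results of these data known, and 25, all on sparse windows and on tall or faint regions, were chosen after seeing the data. In 5 the ratio fell on the other side of 1, each for a result whose interval includes 1. Of 6 results whose interval leaves out 1, 11 of 34 alternatives gave an interval that holds it. Among these 6, the result on sparse windows was added after seeing the data. So were those on tall regions of dense windows and on faint regions of sparse windows. The density of chromosome 7 over the others rose from 1.21 to 1.31 without chromosomes 11, 17 and 19, the densest, by construction. For the share of regions in dense windows, the ratio of 1.21 became 1.04 for the taller 50% of the list, 1.06 with dense windows from 8 regions and 1.70 with dense windows from 15. For sparse windows, the ratio of 0.619 became 0.896 for the taller 50% of the list and 0.899 with windows of 2 Mb. The ratio for neighbours within 10 kb went from 1.12 to 0.863 (0.584 to 1.23) for the taller 50%. For the tallest 5% in place of the tallest 10%, the ratio of 0.737 became 0.487. For all of these except the density, the cause was not tested. Leaving out a replicate could not be done, and no paired analysis was possible because there is 1 library per group. The unknown depth limits every height.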
